A study of Mus musculus with 9 samples.

Results

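This report describes the genes whose RNA level set the lysine-free cultures apart from both lysine-replete groups of 3T3-L1 cells. A gene was chosen by its measured level when all 3 Lysfree libraries lay on the same side of all 6 Undifferentiated and Differentiated libraries, when the means of Undifferentiated and Differentiated differed by less than 1.5-fold, and when the mean over the 9 libraries was at least 1 CPM (the read count per 1000000 counts of the library). Because these values chose the genes, their levels, folds and counts are given as a description with no test. Of 54532 genes in the deposited table, 12708 reached that mean level, 6264 of them differed by less than 1.5-fold between Undifferentiated and Differentiated, and 3014 were set apart in Lysfree. Of the 3014 genes, 2019 were higher and 995 lower in Lysfree.

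Poly A RNA was sequenced from 9 libraries, 3 in each of 3 groups, all of the mouse line 3T3-L1, which is 1 fibroblast line that forms fat cells under hormones in culture. All cells were first held at confluence for 3 days in high-glucose DMEM with bovine calf serum, and Undifferentiated cells received no hormones. Differentiated cells were moved to DMEM with fetal bovine serum, 1 μM dexamethasone (a glucocorticoid), 0.5 mM 3-isobutyl-1-methylxanthine (a phosphodiesterase inhibitor), 1 μM rosiglitazone (a PPARγ agonist) and 10 μg/mL insulin, with lysine added back, and Lysfree cells to the same mixture from which lysine was left out. Lysfree therefore differed from Differentiated in lysine alone, but from Undifferentiated in hormones, serum and base medium as well, the serum is not stated to have been dialysed, and the labels do not say whether the 3 libraries of a group came from separate cultures. A gene with like levels in Undifferentiated and Differentiated may have been left alone by the hormone medium or moved by opposing steps, and these cannot be told apart here.

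Cells sense a shortage of an amino acid in several ways. Uncharged transfer RNA activates the kinase GCN2, which phosphorylates the initiation factor eIF2, lowers general translation and raises the translation of the transcription factor ATF4, whose targets include amino acid transporters, transfer RNA synthetases and biosynthetic enzymes. In parallel the Rag GTPases and their regulators on the lysosome signal amino acid supply to the kinase complex mTORC1, which promotes ribosome production and holds back autophagy.

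The libraries held 15880144 to 21806693 counts. Lysfree 1 stood apart from its replicates, with a chi-square per gene of 43.3 and 44.4 against Lysfree 2 and Lysfree 3, which differed from each other by 2.76, and 2.97 to 12.3 for the pairs of the other groups. It lay more than 2-fold from Lysfree 2 and Lysfree 3 in 692 of the 12708 genes and in 61 of the 3014 set apart. Without it 2499 genes were higher and 1201 lower. The summed level of 10 adipocyte markers was 18013 to 19146 CPM in Differentiated, 466 to 686 CPM in Undifferentiated and 286 to 331 CPM in Lysfree, so Lysfree did not reach the adipocyte level. Of the 9 that were measured at 1 CPM or more, 0 had like levels in Undifferentiated and Differentiated, so none could be set apart by the rule, and in 8 all Lysfree libraries lay below all others. The 10 preadipocyte and fibroblast markers summed to 45926 to 49693 CPM in Undifferentiated, 10110 to 10249 CPM in Differentiated and 17083 to 17367 CPM in Lysfree, and of these Ly6a was set apart. In bulk RNA, fewer cells of a type and less RNA per cell cannot be told apart.

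The genes higher in Lysfree made up 15.9% of the 12708 genes measured and the lower genes 7.83%, which are the backgrounds for the counts per gene group below. They were 48.1% of the 6264 genes with like levels in both other groups. The higher genes took 15.04% of all counts in Undifferentiated, 14.97% in Differentiated and 23.7% in Lysfree, and the lower genes took 10.3%, 9.86% and 6.42%. Most differences were modest. The median fold of the Lysfree mean over the mean of the other 6 libraries was 1.54 for the higher genes (quartiles 1.37 and 1.81), and the median fold the other way was 1.65 for the lower genes (quartiles 1.42 and 2.06). At least 2-fold differences were found in 326 higher and 275 lower genes, and at least 4-fold in 28 and 42. The gap, which is the lowest Lysfree value over the highest of the other 6 libraries for a higher gene and the reverse for a lower gene, had a median of 1.21 for higher and 1.24 for lower genes. The Undifferentiated and Differentiated libraries themselves did not overlap in 60.1% of the 6264 genes, and in 61.6% of the higher and 59.7% of the lower genes. The Lysfree difference was the larger one in 1920 higher and 971 lower genes. The rule limits the other difference and asks for separated Lysfree libraries, so these 2 counts were largely set by the choice of genes. In a fit over all genes, edgeR's quasi-likelihood test with a 2-fold limit called 273 of the higher genes, where it called 4.86% of the 25529 genes fitted as higher, and 314 of the lower genes, where it called 7.32% as lower. The rule used this same contrast, so nothing is read from these counts.

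The split between directions depended on how libraries were scaled. It was 67.0% higher by library total, 59.5% with trimmed mean of M values (TMM) factors (1745 higher and 1190 lower), 58.0% with the median of ratios (1679 and 1215), and 55.1% on the deposited FPKM values, fragments per kilobase scaled to library size (1571 and 1282). No gene changed direction between these scalings. The median log2 difference of Lysfree from the other groups over all 12708 genes moved from 0.025 by library total to -0.083 on the FPKM values.

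**Figure D1:**
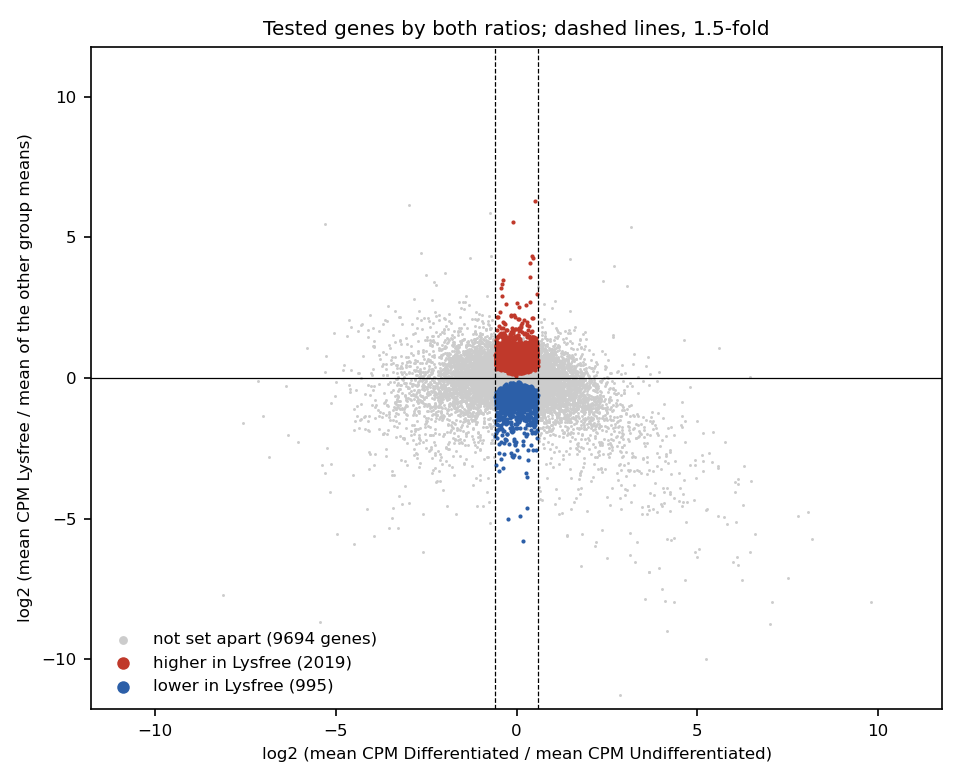
Each point is 1 of the measured genes, with the log2 ratio of Differentiated to Undifferentiated mean CPM on the horizontal axis and the log2 ratio of the Lysfree mean to the mean of the other group means on the vertical axis. The 2019 higher and 995 lower genes form a band around 0 on the horizontal axis because the rule limits that ratio to 1.5-fold, and 18 genes with a group mean of 0 are not drawn.

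The edges of the rule were as follows. Qk (RNA-binding protein Quaking), with Undifferentiated and Differentiated means 1.4998-fold apart, was just inside the ratio limit, as was the pseudogene Gm15519 at 1.49948-fold. Atad2, at 1.50069-fold, was just outside although its Lysfree libraries held 91.3 to 121 CPM and none of the others exceeded 62.6 CPM, and so was the pseudogene Gm10297 at 1.50054-fold. On level, Afap1l1 (mean 1.00 CPM) and Lgals7 (1.006 CPM) were inside while Tspan32 (0.993 CPM) and Dmrta2os (0.994 CPM) were outside. The narrowest gaps counted were 1.00022 for Zcchc8 and 1.00036 for Ets1 among higher genes, and 1.00005 for the pseudogene Rpl39-ps and 1.00043 for Yju2 among lower genes.

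Of the targets of ATF4 and the integrated stress response, 41 were measured, and 11 of them were set apart as higher in Lysfree and 2 as lower. The list median was 0.58 on the log2 scale of Lysfree over the other groups, beside 0.025 for all measured genes. Only 16 of the 41 had like levels in Undifferentiated and Differentiated, so 25 could not be counted whatever their Lysfree level, and in 20 of the 41 all Lysfree libraries lay above all others. The list was written with earlier results of these data known. Without Lysfree 1 the counts were 13 higher and 2 lower.

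Promoter stretches of 4 of these genes and of Avil (described below) are shown because they hold the composite element that C/EBP and ATF factors are known to bind, written TGATGNAA or its reverse complement TTNCATCA, in capitals. The sequences are from RefSeq on GRCm38.p6, read 5′ to 3′ on the strand of the gene.

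Slc1a4, chr11:20332704-20332833, minus strand: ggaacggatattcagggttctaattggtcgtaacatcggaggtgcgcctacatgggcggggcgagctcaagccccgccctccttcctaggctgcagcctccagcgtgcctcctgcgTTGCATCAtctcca
Herpud1, chr8:94386279-94386428, plus strand: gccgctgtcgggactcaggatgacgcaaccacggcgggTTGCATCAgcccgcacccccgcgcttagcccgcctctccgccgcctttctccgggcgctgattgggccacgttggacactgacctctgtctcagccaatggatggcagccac
Trib3, chr2:152344031-152344140, minus strand: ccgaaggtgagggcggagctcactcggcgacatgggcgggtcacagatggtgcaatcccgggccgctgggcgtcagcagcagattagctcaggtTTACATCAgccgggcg
Avil, chr10:127000589-127000708, plus strand: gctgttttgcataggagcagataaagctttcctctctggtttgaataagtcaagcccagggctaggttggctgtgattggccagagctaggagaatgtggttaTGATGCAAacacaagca
Pycr1, chr11:120643749-120643898, minus strand: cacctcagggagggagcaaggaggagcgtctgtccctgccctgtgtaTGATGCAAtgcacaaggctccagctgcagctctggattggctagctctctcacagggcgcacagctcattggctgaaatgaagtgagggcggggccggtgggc

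All belong to higher genes except the last, Pycr1, a lower gene. The element was found in 2.77% of the promoters of higher genes, 2.13% of those of lower genes, 2.13% of those of all measured genes and 3.97% of all promoters in the table. A match of letters is a description and was not tested for binding.

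Amino acid carriers of the list were set apart on both sides. Slc1a4, a carrier of serine, alanine and other small neutral amino acids, held 64.9, 66.1 and 64.9 CPM in Undifferentiated, 58.7, 55.5 and 56.0 CPM in Differentiated, and 164, 146 and 145 CPM in Lysfree, a 2.49-fold difference. Slc6a9, a glycine carrier, held 29.8, 30.5 and 31.5 CPM, 25.9, 24.8 and 23.3 CPM, and 76.9, 76.1 and 85.1 CPM in the same order (edgeR log2 difference 1.46 ± 0.09, SE, 3 Lysfree libraries against 6). In both genes the lowest Lysfree library was more than 2-fold above the highest of the others. Slc3a2, the heavy chain that partners several light-chain amino acid carriers, ranged from 246 to 284 CPM in the 6 libraries with lysine and held 550, 742 and 756 CPM in Lysfree 1 to 3, where Lysfree 1 was the lowest yet stayed 1.93-fold above the nearest other library. Slc38a2, a sodium-coupled neutral carrier, differed less, at 466 to 581 CPM against 887, 626 and 653 CPM, and its gap was 1.08. Slc7a3, a carrier of cationic amino acids that include lysine, was set apart on the lower side, but at a level close to the limit, 1.008 to 1.77 CPM against 0.358, 0.169 and 0.774 CPM.

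Among the other ATF4 targets, Stc2, a secreted glycoprotein, showed the largest fold. It held 6.36, 5.73 and 4.53 CPM in Undifferentiated, 4.24, 4.01 and 4.55 CPM in Differentiated, and 15.2, 16.5 and 18.7 CPM in Lysfree, 3.42-fold higher (log2 difference 1.71 ± 0.14). Aldh1l2, the mitochondrial 10-formyltetrahydrofolate dehydrogenase, held 220 to 316 CPM without overlap with the Lysfree values of 718, 697 and 672 CPM, and it overlaps D10Wsu102e in the annotation. Sesn2, a leucine-binding inhibitor of mTORC1 signalling, held 154 to 185 CPM against 290, 326 and 325 CPM. Sqstm1, the autophagy receptor p62, held 788 to 809 CPM in Undifferentiated, 545 to 583 CPM in Differentiated and 1262, 1380 and 1381 CPM in Lysfree. Herpud1, a component of endoplasmic reticulum associated degradation, was 2.23-fold higher, and Vldlr, the very low density lipoprotein receptor, 1.88-fold higher. Trib3, a pseudokinase that ATF4 induces, passed by a narrow margin, because Lysfree 1 with 204 CPM hardly exceeded the highest Differentiated value of 203 CPM. Pycr1, a proline synthesis enzyme counted among ATF4 targets, ran the other way, with 28.8, 31.6 and 27.6 CPM in Lysfree below 40.5 to 49.1 CPM elsewhere.

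Of 37 measured aminoacyl-tRNA synthetases, 6 were set apart as higher and 2 as lower, with a list median of 0.26 on the log2 scale. These were 16.2% and 5.41%, near the 15.9% and 7.83% of all measured genes. Only 17 of the 37 had like levels in Undifferentiated and Differentiated. In 13 of the 37 all Lysfree libraries lay above all others and in 2 below. Nars, the cytosolic asparaginyl synthetase, held 289, 292 and 287 CPM in Undifferentiated, 361, 369 and 364 CPM in Differentiated, and 934, 914 and 913 CPM in Lysfree, 2.81-fold higher (log2 difference 1.43 ± 0.07). The replicates of each group were close, and the groups did not overlap. Tars (threonyl) was 2.10-fold and Aars (alanyl) 1.79-fold higher, and Yars, Eprs and Sars were between 1.20- and 1.39-fold higher. The lower genes were Qars, the glutaminyl synthetase, with 88.6 to 92.4 CPM against 98.7 to 118 CPM, and Pars2, the mitochondrial prolyl synthetase. Kars, the lysyl synthetase, could not be counted, because its means in Undifferentiated and Differentiated, 124 and 201 CPM, were too far apart, and its Lysfree mean was 208 CPM.

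Of 16 measured genes of the GCN2, eIF2 and ATF4 machinery, 6 had like levels in Undifferentiated and Differentiated, and of these 1 was higher and 1 lower. Over all 16, all Lysfree libraries lay above all others in 5 genes and below them in 2. Eif2ak4, which encodes GCN2, held 57.7, 50.5 and 55.4 CPM in Undifferentiated, 38.6, 39.1 and 36.1 CPM in Differentiated, and 31.5, 30.4 and 28.6 CPM in Lysfree, so the Lysfree values were the lowest but stood nearer to Differentiated. Eif2ak1, the heme-regulated eIF2 kinase, was 1.39-fold higher and overlaps Aimp2.

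Of 42 measured genes of mTORC1 and amino acid sensing, 11 were higher and 5 lower, 13 and 6 without Lysfree 1, and 10 and 6 with TMM scaling. The list median was 0.09 on the log2 scale. Of the 42, 30 had like levels in Undifferentiated and Differentiated, beside 6264 of all 12708 measured genes. A larger part of this list could therefore be counted. The higher genes included Rraga, one of the Rag GTPases, with 68.3 to 71.2 CPM in Undifferentiated, 98.1 to 108 CPM in Differentiated and 208, 178 and 180 CPM in Lysfree. Rragc, another Rag GTPase, held 118 to 172 CPM against 256, 190 and 188 CPM. Itfg2, a subunit of the KICSTOR complex that anchors the GATOR1 inhibitor, was 2.62-fold higher, at 16.2 to 21.0 CPM against 50.1, 45.4 and 48.6 CPM, and overlaps Nrip2. Lamtor3 and Lamtor5, of the Ragulator complex that holds the Rag GTPases on the lysosome, were 1.86- and 1.57-fold higher, and Slc38a9, a lysosomal arginine sensor, 1.42-fold. The GATOR complexes were divided, with Nprl3, Mios and Wdr59 higher and Nprl2 lower. The other lower genes were Rps6kb2, an S6 kinase, 2.35-fold, Sesn1, Deptor and Tsc2, the last 3 of which encode restraints on mTORC1. Sesn1 and Sesn2, related genes, thus lay on opposite sides. Sesn1 held 25.5 to 42.5 CPM with lysine and 18.9, 16.6 and 18.7 CPM without.

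**Figure D2:**
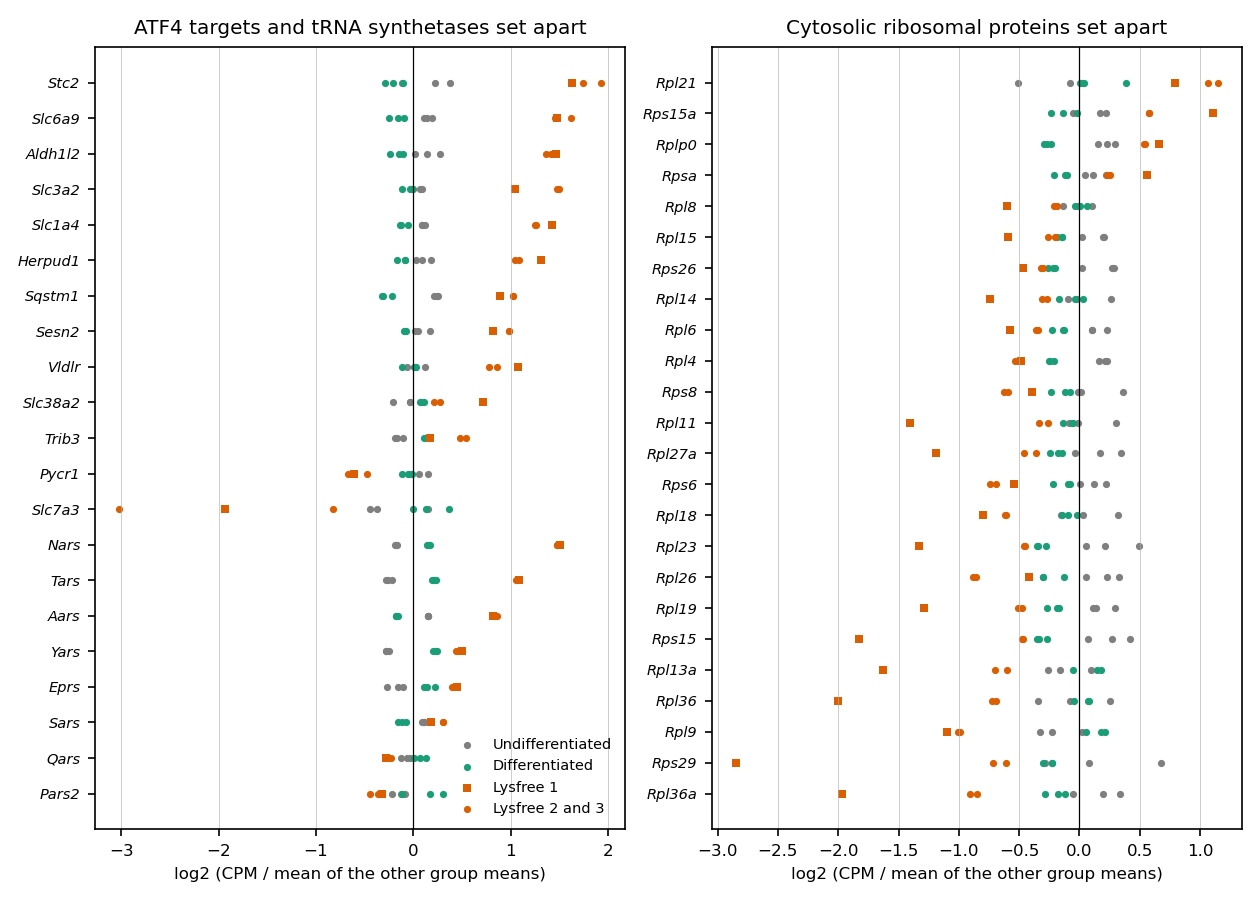
Each row is a gene and each point 1 library, plotted as the log2 ratio of its CPM to the mean of the Undifferentiated and Differentiated means, with Lysfree 1 drawn as a square. ATF4 targets and aminoacyl-tRNA synthetases that were set apart are on the left, where 17 genes are higher and 4 lower in Lysfree, and cytosolic ribosomal proteins are on the right, where 4 higher and 20 of the lower genes are drawn and Lysfree 1 often lies apart from Lysfree 2 and 3.

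Of 14 measured genes of lysine degradation and carnitine synthesis, 0 were higher and 1 was lower: Gcdh, the glutaryl-CoA dehydrogenase of the lysine pathway, with 24.2 to 33.8 CPM against 10.7, 14.96 and 11.9 CPM in Lysfree. Only 2 of the 14 had like levels in Undifferentiated and Differentiated. Of 9 lysyl oxidases and hydroxylases, Plod1 was lower by 1.11-fold, with a gap of 1.00. Of 8 cationic amino acid carriers, Slc25a15, the mitochondrial ornithine carrier, was 1.34-fold higher and Slc7a3 lower.

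Other amino acid enzymes were unequally divided. Bcat1, the cytosolic branched-chain aminotransferase, held 66.7, 59.7 and 63.7 CPM in Undifferentiated, 81.6, 86.1 and 86.3 CPM in Differentiated, and 352, 310 and 312 CPM in Lysfree, 4.39-fold higher (log2 difference 2.08 ± 0.08). It was the 1 higher gene among 28 of branched-chain amino acid degradation, whereas 5 were lower, among them Pccb, Auh and Bckdk. Only 9 of the 28 had like levels in Undifferentiated and Differentiated. Over all 28, all Lysfree libraries lay below all others in 15 genes and above them in 1, and the list median was -1.19 on the log2 scale. Pccb, a subunit of propionyl-CoA carboxylase, held 36.4 to 54.9 CPM with lysine and 11.5, 17.2 and 14.1 CPM without. In serine, glycine and folate metabolism 3 of 19 genes were higher and 0 lower, and beside Aldh1l2 these were Mtr, methionine synthase, and Mtrr, the reductase that reactivates it, with 20.8 to 30.2 CPM against 58.8, 56.6 and 56.0 CPM. Only 6 of the 19 had like levels in Undifferentiated and Differentiated. Over all 19, all Lysfree libraries lay above all others in 6 genes and below them in 2. Of 30 genes of alanine, aspartate, glutamate and proline metabolism, 2 were higher and 4 lower, and 10 had like levels in Undifferentiated and Differentiated. Over all 30, all Lysfree libraries lay above all others in 9 genes and below them in 8.

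The widest gap of all higher genes belonged to F5, which encodes coagulation factor V. It was at or below 0.208 CPM in the 6 libraries with lysine and held 6.27, 6.58 and 9.40 CPM in Lysfree, a gap of 30.1. The 6 endothelial markers summed to at most 1.32 CPM with lysine and 6.39 to 7.93 CPM in Lysfree, and their part in the F5 result was not tested. Only 1 of the 6 reached a mean of 1 CPM, with a log2 difference of 4.28, so the sum says little about the 6 as a set. Il6, the cytokine interleukin 6, held 0.712, 0.459 and 0.630 CPM in Undifferentiated, 0.686, 0.728 and 0.899 CPM in Differentiated, and 13.7, 9.90 and 11.3 CPM in Lysfree, 17.0-fold higher (log2 difference 4.02 ± 0.21). The 3 Lysfree libraries were far above the rest. Cd53, a tetraspanin known from leukocytes, held 0.285 to 0.624 CPM with lysine and 11.2, 5.12 and 5.31 CPM in Lysfree, with Lysfree 1 well above its replicates. Of 8 macrophage and leukocyte markers 3 were at 0 in every library (Adgre1, Itgam and Tyrobp), and the 8 summed to 18.1 to 21.3 CPM in Lysfree, between the 27.2 to 31.8 CPM of Undifferentiated and the 12.8 to 14.4 CPM of Differentiated.

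The promoter stretch of Il6 is shown with the letters GGGNNTTTC of the NF-κB type in capitals, since Il6 is a textbook target of that factor. The letters, on either strand, occurred in 3.73% of promoters of higher genes and 4.18% of those of all measured genes.

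Il6, chr5:30012994-30013113, plus strand: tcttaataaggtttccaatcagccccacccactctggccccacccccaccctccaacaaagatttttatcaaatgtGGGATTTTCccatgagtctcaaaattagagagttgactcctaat

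Inhba, the activin A subunit, held 13.9 to 16.8 CPM in the 6 libraries with lysine and 112, 102 and 86.8 CPM in Lysfree, 6.37-fold higher. Its partner subunit Inha lay on the lower side, with 9.08 to 12.3 CPM against 2.51, 3.88 and 2.54 CPM. Igfbp5, an insulin-like growth factor binding protein, held 2.20 to 4.53 CPM against 29.2, 26.6 and 27.1 CPM, but with Undifferentiated and Differentiated means 1.49-fold apart it left the set under the other scalings. Gja1, the gap junction protein connexin 43, held 14.7 to 21.0 CPM against 118, 111 and 106 CPM. Steap1, a metalloreductase, held 18.9 to 29.5 CPM with lysine and a mean of 148.9 ± 1.66 CPM (SD, n = 3) in Lysfree. In these genes the 3 Lysfree libraries lay close together and far above the others.

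Avil, the actin regulator advillin, held 1.42 to 2.70 CPM against 22.9, 32.6 and 25.9 CPM, 12.1-fold higher, and overlaps Tsfm. Paqr3, a Golgi membrane protein, held 4.99 to 9.02 CPM against 51.6, 51.0 and 48.7 CPM and overlaps Bmp2k, which was itself 1.96-fold higher. Where genes overlap and the strand setting of the count is not given, their reads cannot be told apart. Ret, a receptor tyrosine kinase, held at most 0.630 CPM with lysine and 3.999, 5.29 and 3.54 CPM in Lysfree, and Itgb7, an integrin chain, at most 1.008 CPM and 5.85, 5.85 and 5.42 CPM. Krt80, Maats1, Otog and Arap3 completed the 15 widest gaps on the higher side, all with means under 9 CPM in Lysfree.

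**Figure D3:**
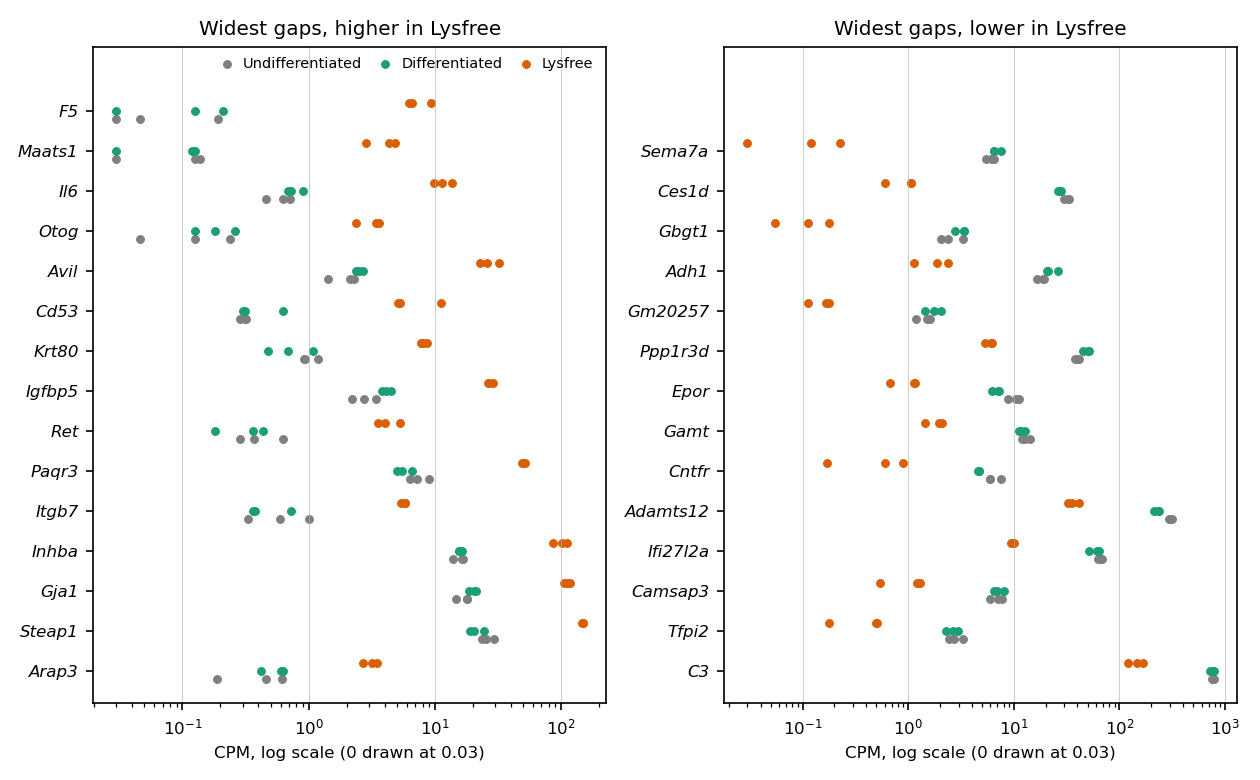
Points are single libraries on a logarithmic CPM axis for 15 genes among the widest gaps on the higher side and 14 on the lower side, coloured by group, with values of 0 drawn at 0.03. In each gene the 3 Lysfree points lie to one side of the 6 others, from F5 with a gap of 30.1 to C3 with a gap of 4.32.

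On the lower side the widest gap belonged to Sema7a, a membrane-anchored semaphorin, with 5.50 to 7.54 CPM with lysine and 0.119, 0.225 and 0 CPM in Lysfree, a gap of 24.5. Ces1d, a carboxylesterase that hydrolyses lipid esters, held 33.5, 32.7 and 29.6 CPM in Undifferentiated, 26.1, 27.7 and 27.1 CPM in Differentiated, and 1.07, 1.07 and 0.608 CPM in Lysfree, 32.1-fold lower (log2 difference -5.07 ± 0.18). Both genes were near or below 1 CPM in each Lysfree library, including Lysfree 1. Adh1, an alcohol and retinol dehydrogenase, was 11.4-fold lower, with 2.39, 1.12 and 1.88 CPM in Lysfree. Gamt, which completes creatine synthesis, was 6.80-fold lower and Ppp1r3d, a glycogen-targeting subunit of protein phosphatase 1, 7.51-fold lower.

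Adamts12, a secreted matrix protease, had a gap of 5.13, with 318, 296 and 300 CPM in Undifferentiated, 237, 232 and 211 CPM in Differentiated, and 41.1, 32.3 and 35.3 CPM in Lysfree. Adamts9 and Adamts15 were also lower, 2.57- and 3.41-fold, while Mmp28, Mmp17 and Timp3 were higher. Of 34 measured matrix proteases and inhibitors 3 were thus set apart on each side, but only 8 had like levels in Undifferentiated and Differentiated. Over all 34, all Lysfree libraries lay below all others in 9 genes and above them in 3. The list median was -0.77 on the log2 scale. C3, the central complement component, held 725 to 788 CPM in the 6 libraries with lysine, with the groups overlapping, and 168, 122 and 147 CPM in Lysfree, 5.25-fold lower (log2 difference -2.46 ± 0.08). The cytokine receptor chains Epor and Cntfr were 8.60- and 10.0-fold lower at levels under 12 CPM, and Ifi27l2a, an interferon-inducible gene, was 6.41-fold lower. Gbgt1, Gm20257, Tfpi2 and Camsap3, which overlaps Xab2, were also among the widest gaps.

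Several components of cytokine signalling were also set apart. Of 20 measured IL6 family receptors and STAT3 signalling genes, 5 were higher and 1 lower, and 8 had like levels in Undifferentiated and Differentiated. Over all 20, all Lysfree libraries lay above all others in 7 genes and below them in 3. Osmr, the oncostatin M receptor, held 107 to 115 CPM in Undifferentiated, 88.4 to 91.7 CPM in Differentiated and 384, 285 and 301 CPM in Lysfree, 3.24-fold higher. Socs2, a suppressor of cytokine signalling, held 10.3 to 11.96 CPM against 56.0, 51.1 and 51.6 CPM, 4.69-fold higher, and Jak2 was 2.04-fold higher. Stat3 held 216 to 228 CPM against 341, 330 and 331 CPM and overlaps Stat5a. Cish, another suppressor of cytokine signalling, was 1.72-fold lower. Of 25 measured cytokines and secreted inflammatory factors 1 was higher (Il6) and 2 were lower, C3 and Ctf1, which encodes the IL6 family member cardiotrophin 1, with 11.3 to 15.9 CPM against 4.24, 6.75 and 6.69 CPM. Only 4 of the 25 had like levels in Undifferentiated and Differentiated, so the others could not be counted. Over all 25, all Lysfree libraries lay above all others in 4 genes and below them in 8.

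Immediate early and NF-κB genes lay on both sides, with 6 of 39 higher and 4 lower. These were 15.4% and 10.3%, near the 15.9% and 7.83% of all measured genes. Rela, a subunit of NF-κB, was 1.70-fold higher and its inhibitor Nfkbia 1.75-fold lower, at 53.4 to 77.1 CPM against 30.3, 39.3 and 41.4 CPM, while the related inhibitor Nfkbib, which overlaps Sirt2, was 1.97-fold higher. Egr1, a serum response gene, held 37.5 to 47.7 CPM with lysine and 7.998, 10.6 and 9.29 CPM in Lysfree, 4.71-fold lower, and Egr2 and Klf2 were lower with it. Of 42 interferon-stimulated genes 1 was higher and 3 were lower (Usp18, Rsad2 and Ifih1). Only 6 of the 42 had like levels in Undifferentiated and Differentiated, so the others could not be counted. In 26 of the 42 all Lysfree libraries lay below all others and in 1 above, and the list median was -1.61 on the log2 scale. The Usp18 values were 34.2 to 66.5 CPM against 15.2, 13.1 and 11.2 CPM.

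Of 33 measured p53 targets and inhibitors of cyclin-dependent kinases, 8 were higher and 2 lower, and 12 had like levels in Undifferentiated and Differentiated. Over all 33, all Lysfree libraries lay above all others in 14 genes and below them in 4. Trp53, which encodes p53, held 119 to 138 CPM in Undifferentiated, 88.7 to 102 CPM in Differentiated and 232, 219 and 227 CPM in Lysfree, 2.01-fold higher. Gadd45a, a growth arrest gene, held 34.1 to 55.3 CPM against 87.9, 166 and 168 CPM, so that Lysfree 1 was closest to the other groups. Rrm2b, the p53-inducible ribonucleotide reductase subunit, was 2.24-fold higher and Phlda3, a repressor of AKT, 1.80-fold. Mdm2, the ubiquitin ligase that removes p53, was 1.26-fold higher, with a gap of 1.06 that did not hold under TMM, median of ratios or FPKM scaling.

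Stress and antioxidant genes also fell on both sides. Of 43 measured NRF2 targets and glutathione enzymes 8 were higher and 2 lower (18.6% and 4.65%, beside 15.9% and 7.83% of all measured genes). Only 13 of the 43 had like levels in Undifferentiated and Differentiated. Over all 43, all Lysfree libraries lay above all others in 10 genes and below them in 9. The list median was -0.33 on the log2 scale. Abcc4, an exporter of organic anions, held 39.6 to 67.0 CPM against 145, 130 and 134 CPM, and Txnrd1, cytosolic thioredoxin reductase, 111 to 125 CPM against 226, 230 and 228 CPM. Gclc and Gclm, which make up the enzyme that starts glutathione synthesis, were 1.54- and 1.74-fold higher, whereas Gsr, glutathione reductase, was 2.07-fold lower. Of 34 endoplasmic reticulum chaperones and unfolded protein response genes 8 were higher (23.5%) and 5 lower (14.7%), and 18 had like levels in Undifferentiated and Differentiated. Over all 34, all Lysfree libraries lay above all others in 9 genes and below them in 11. The median of this list was -0.18 on the log2 scale. The sensors Atf6 (2.15-fold) and Ern1 (1.75-fold) were among the higher genes, and the abundant chaperones Calr, Canx and P4hb among the lower. Calr held 1020 to 1096 CPM with lysine and 513, 535 and 529 CPM in Lysfree.

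Ribosomal protein genes gave the largest count on the lower side among the lists examined. Of 83 measured cytosolic ribosomal proteins 21 were lower (25.3%) and 4 higher, 26 and 3 with TMM scaling, 27 and 3 with the median of ratios, and 23 and 13 without Lysfree 1, so the count of higher genes depended on that library. Of the 83, 67 had like levels in Undifferentiated and Differentiated, beside 6264 of all 12708 measured genes, so a larger part of the list could be counted. The list median was -0.24 on the log2 scale, and Lysfree 1 differed from the mean of Lysfree 2 and 3 by a median of -0.36 over the list. Rpl19 held 854, 952 and 839 CPM in Undifferentiated, 684, 646 and 689 CPM in Differentiated, and 319, 546 and 557 CPM in Lysfree, 1.64-fold lower. Rpl9, in which Lysfree 1 did not stand apart, held 539 to 785 CPM against 317, 337 and 341 CPM. In Rps29 Lysfree 1 held 43.7 CPM while Lysfree 2 and 3 held 191 and 206 CPM, below the 255 CPM of the lowest other library. Rplp0, of the ribosomal stalk, lay on the higher side, with 2770, 3061 and 2914 CPM, 2074, 2029 and 2113 CPM, and 3941, 3631 and 3608 CPM. Ribosomal proteins have many processed copies in the genome, and Rps2-ps13, a pseudogene with a mean of 1833 ± 20.7 CPM (SD, n = 3) in Lysfree, may share reads with its parent gene, so single values are uncertain.

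Of 64 measured translation factors 10 were higher and 5 lower, but 7 and 7 with TMM scaling and 6 and 7 with the median of ratios. By library total the higher genes were initiation factors or their regulators, and 4 of the 5 lower genes were elongation factors or the Eef2 methyltransferase, beside Eif2ak4. Eef2, elongation factor 2, held 3603, 3747 and 3630 CPM in Undifferentiated, 2619, 2640 and 2627 CPM in Differentiated, and 1747, 1763 and 1759 CPM in Lysfree, 1.79-fold lower, with Lysfree 1 in step with its replicates. Eef1a1, elongation factor 1A, was the most abundant of all genes set apart by length-corrected level, at 3481 ± 79.4, 2846 ± 96.6 and 2402 ± 44.2 FPKM (SD, n = 3) in Undifferentiated, Differentiated and Lysfree. In CPM its means were 8753, 6862 and 6375 in the same order, with a gap of 1.03, so Lysfree lay only just below Differentiated. Eef1g was 1.60-fold lower. Eif6, which keeps ribosomal subunits apart, was 2.16-fold higher, Eif3a 1.97-fold and Eif1 1.90-fold.

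Of 87 ribosome biogenesis factors 17 were higher (19.5%, beside 15.9% of all measured genes) and 4 lower, 13 and 4 with TMM scaling, and 22 and 4 without Lysfree 1. Only 32 of the 87 had like levels in Undifferentiated and Differentiated, so the others could not be counted. In 45 of the 87 all Lysfree libraries lay above all others and in 5 below, and the list median was 0.51 on the log2 scale. Utp15, of the small subunit processome, held 37.1 to 44.7 CPM against 116, 96.0 and 88.0 CPM, 2.45-fold higher, and Noc3l, Utp20, Nip7 and Utp14a were 1.97- to 2.26-fold higher. Of 37 proteasome subunits 6 were higher (16.2%, near the 15.9% of all measured genes) and 1 lower, and 15 had like levels in Undifferentiated and Differentiated. Of 45 autophagy genes 8 were higher and 5 lower, but 5 and 6 with TMM scaling and 12 and 9 without Lysfree 1, so no direction held for the list. Of 22 collagen chains 4 were lower (Col4a1, Col4a2, Col6a1 and Col18a1) and 0 higher, by library total, TMM and the median of ratios alike. Only these 4 had like levels in Undifferentiated and Differentiated. Over all 22, all Lysfree libraries lay below all others in 10 chains and above them in 0. Col6a1 held 2758 to 3781 CPM with lysine and 1543, 1800 and 1833 CPM in Lysfree. Col4a1 and Col4a2 overlap at their 5′ ends.

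Pathways that differed between Undifferentiated and Differentiated were seldom counted, because few of their genes had like levels in these groups. That number was 5 of 35 for fatty acid and triglyceride synthesis, where 0 genes were higher and 2 lower (Acacb and Elovl6), and 3 of 31 for cholesterol synthesis, where Ebp alone was higher. It was 4 of 34 for the citrate cycle with 0 higher and 2 lower, 6 of 38 for complex I with 1 on each side, 8 of 59 for lysosomal proteins with 2 higher and 3 lower, and 9 of 52 for DNA replication and mitosis with 2 on each side. Mcm2, a subunit of the replicative helicase, held 99.7 to 107 CPM against 229, 265 and 240 CPM, while the replication regulator E2f1 was 1.60-fold lower. Of 36 genes of TGF-beta and BMP signalling, 12 had like levels in Undifferentiated and Differentiated, and 5 were higher and 4 lower. These were 13.9% and 11.1%, beside 15.9% and 7.83% of all measured genes. Ltbp3, which binds latent TGF-beta, held 325 to 360 CPM against 135, 170 and 170 CPM. The insulin, PI3K and AKT list had 6 of 43 higher and 2 lower, or 3 and 2 with the median of ratios.

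**Figure D4:**
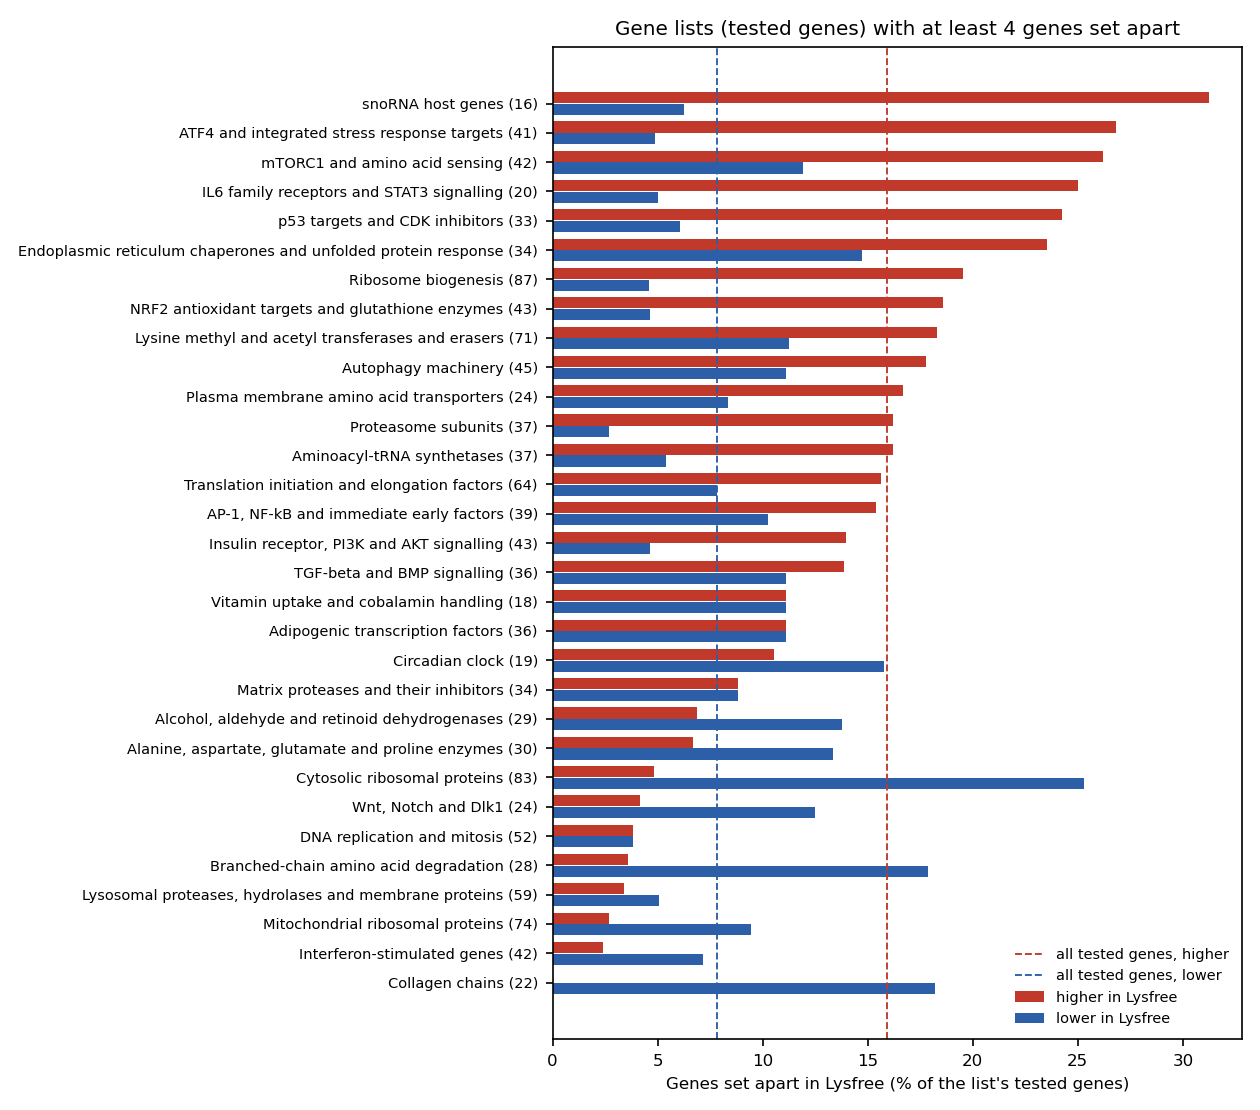
Bars give the percentage of the measured genes of each list that were higher or lower in Lysfree, for lists with at least 12 measured genes and at least 4 set apart. The dashed lines mark the shares over all measured genes, 15.9% higher and 7.83% lower, and cytosolic ribosomal proteins reach 25.3% on the lower side. Lists differ in how many of their genes had like levels in Undifferentiated and Differentiated and so could be counted.

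Among regulators of adipocyte formation 4 of 36 were higher and 4 lower, and 12 had like levels in Undifferentiated and Differentiated. Over all 36, all Lysfree libraries lay above all others in 10 genes and below them in 8. Cebpd, an early C/EBP factor, held 53.2 to 74.4 CPM with lysine and 104, 174 and 179 CPM in Lysfree. Ppargc1a, a coactivator of mitochondrial genes, was 2.49-fold higher and Id3, an inhibitor of helix-loop-helix factors, 2.71-fold. Rxra, the partner of PPARγ, held 291 to 339 CPM against 154, 160 and 153 CPM, 2.02-fold lower, and Ebf1, Zfp467 and Klf2 were lower as well. Ly6a, the stem cell antigen Sca-1, held 109, 123 and 111 CPM in Undifferentiated, 84.3, 78.7 and 86.1 CPM in Differentiated, and 528, 484 and 489 CPM in Lysfree, 5.07-fold higher. Ly6a was thus above both groups in every Lysfree library. It was the 1 preadipocyte marker of the 9 measured with like levels in Undifferentiated and Differentiated, so the others could not be counted whatever their Lysfree level, and in 2 of the 9 all Lysfree libraries lay above all others.

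Enzymes that modify lysine residues of histones and other proteins were divided by direction in a way that changed with scaling, 13 of 71 higher and 8 lower by library total and 11 and 15 with TMM. Kdm6a and Ezh2, an eraser and the writer of methylation at the same histone lysine, were both higher, 1.95- and 1.81-fold. Hdac5, a deacetylase, held 66.3 to 80.4 CPM against 14.8, 22.4 and 21.8 CPM, 3.65-fold lower. Of 19 clock genes 2 were higher (Arntl and Cry1) and 3 lower, of which Tef, an output factor of the clock, held 99.3 to 156 CPM against 36.5, 32.5 and 35.6 CPM.

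Snhg1, a host gene of small nucleolar RNAs, was 4.39-fold higher, with 26.8, 34.5 and 30.5 CPM in Undifferentiated, 43.5, 38.9 and 42.3 CPM in Differentiated, and 157, 156 and 162 CPM in Lysfree. In the deposited gene models it lies head to head with Slc3a2 on chromosome 19, with 5′ ends 106 bases apart and transcription in opposite directions. Both genes were higher. The RefSeq promoter matched to Slc3a2, chr19:8713848-8714147, does not adjoin that of Snhg1, chr19:8723237-8723536, so the 106 bases hold for the deposited models only. The stretch before the start of Snhg1 is shown because it lies on the side facing Slc3a2 in those models. The SP1-type letters GGGCGG are in capitals, which 68.2% of promoters of higher genes and 66.8% of those of all measured genes held on either strand.

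Snhg1, chr19:8723287-8723486, plus strand: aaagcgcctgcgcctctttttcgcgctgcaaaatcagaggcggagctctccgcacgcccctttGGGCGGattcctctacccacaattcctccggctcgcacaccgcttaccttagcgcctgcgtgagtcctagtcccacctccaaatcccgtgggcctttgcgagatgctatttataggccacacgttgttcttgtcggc

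Of 16 measured host genes of this kind, a list added after Snhg1 had been seen, 5 were higher and 1 lower. Snhg15 held 11.7 to 18.5 CPM against 19.4, 42.9 and 45.8 CPM, and Lysfree 1 was near the other groups. In 705 pairs of measured genes with divergent 5′ ends in the deposited gene models, both genes were higher in 38, both lower in 10 and one each way in 11. A divergent partner of a higher gene was itself higher in 31.5% of 241 cases, beside 17.1% of 1410 over all measured genes, and a partner of a lower gene was lower in 16.5% of 121 cases beside 8.58%.

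The higher and lower genes differed in base composition, which the rule did not use. The share of G or C at the third codon position had a median of 54.1% in higher genes, 64.5% in lower genes and 60.3% in all measured genes with a coding sequence. With the genes in 5 bins of near equal size, from the lowest share to the highest, the percentage higher in Lysfree went through 27.5, 21.2, 15.1, 11.6 and 9.15, and the percentage lower through 3.39, 6.29, 8.93, 11.6 and 10.4. Lysfree 1 differed from Lysfree 2 and 3 along the same axis, by a median of 0.26 on the log2 scale in the lowest bin and -0.25 in the highest. Without Lysfree 1 the trend was smaller, from 28.5% to 14.3% higher and from 6.24% to 10.6% lower, and the part of RNA or library quality in it was not tested. Differentiated against Undifferentiated also moved along it, with median log2 differences of 0.09 in the lowest and -0.20 in the highest bin.

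Gene length moved with direction too. The median length of the gene model was 5115 bases for higher, 3979 for lower and 4201 for all measured genes, and the percentage of genes that were higher went from 8.22 in the shortest of 5 bins to 21.6 in the longest, or from 13.95 to 23.5 without Lysfree 1. The share of lysine among codons of the longest coding sequence had medians of 5.96% in higher, 5.60% in lower and 5.70% in all measured genes. In 5 bins from the fewest lysine codons to the most, the percentage of genes higher in Lysfree was 13.2, 16.9, 17.96, 19.05 and 17.4, and it was 17.4 in the first and 21.8 in the last bin without Lysfree 1. The percentage lower was 8.75 in the first and 8.44 in the last bin.

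**Figure D5:**
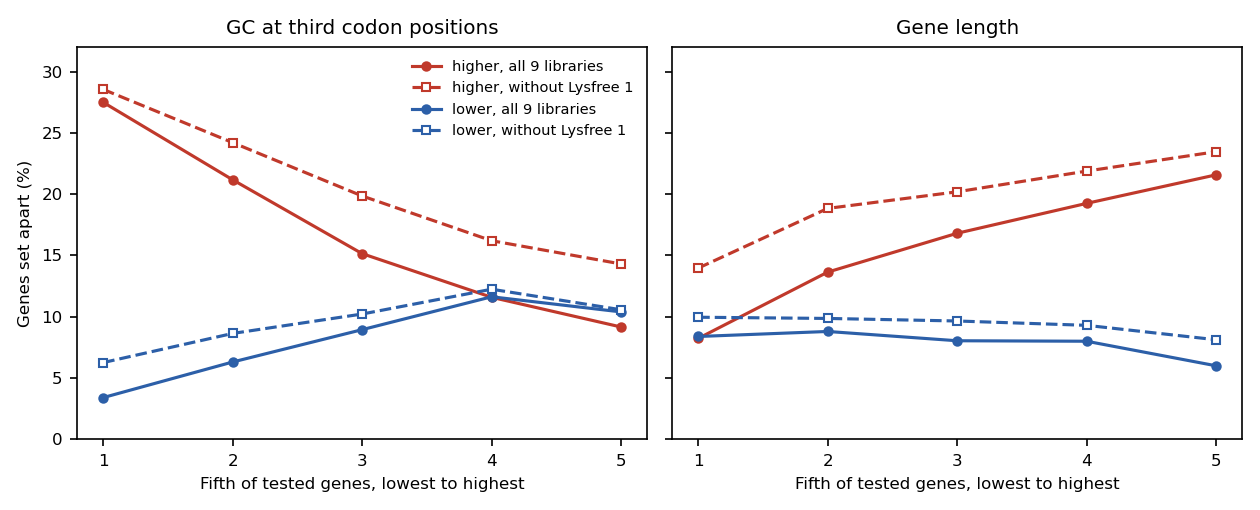
Percentage of measured genes set apart as higher or lower in Lysfree in 5 bins of genes ordered by G or C share at the third codon position (left) and by gene length (right), with all libraries and without Lysfree 1. The higher share falls from 27.5% to 9.15% along the base composition axis, and from 28.5% to 14.3% without Lysfree 1.

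The E-box CACGTG was found in 12.3% of promoters of higher genes, 8.52% of those of lower genes, 10.4% of those of all measured genes and 7.15% of all promoters in the table. Its longer form GTCACGTG, known as the CLEAR type of lysosomal and autophagy genes and counted within the E-box, was found in 5.85%, 3.33%, 4.40% and 2.25%. The ETS-type letters CCGGAAGT were in 11.3%, 6.52%, 9.13% and 3.89%. They were also in 12.4% of promoters of genes with like levels in Undifferentiated and Differentiated that were not set apart, and in 4.78% of those of genes at least 2-fold higher. The NF-Y letters CCAAT were in 36.6%, 43.1%, 39.8% and 37.4% of the same 4 sets as the E-box. All were searched on both strands, over 1555 promoters of higher genes, 751 of lower genes and 9121 of all measured genes.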

How the data were processed

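Poly A RNA of 9 libraries was sequenced by the authors. Per the labels' processing notes the reads were aligned to mm10 with HISAT2 2.0.5 and counted with featureCounts 1.5.0-p3. The annotation release and the strand setting are not given in the sources used here. The authors deposited a table of read counts per gene, with no normalization, and a table of FPKM values (fragments per kilobase scaled to library size), both for all 9 libraries.

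The deposited counts were divided by the library total to give CPM, and the rule stated at the start was applied. The members and the gene lists were chosen with earlier results of these data known, and the list of small nucleolar RNA hosts was added after Snhg1 had been seen. Named genes were the 15 widest gaps and the 5 highest mean FPKM in each direction, members of the lists, and 2 genes on each side of each limit; a few of these are not reported here. In a gap, values under 3 counts were set to 3 counts. Log2 differences and standard errors came from edgeR 4.0.16 (R 4.3.3, quasi-likelihood fit of all 9 libraries, TMM, Lysfree minus the mean of the other groups, genes with any count), tested on simulated data. Calls were made at a Benjamini-Hochberg adjusted p of 0.05 and 2-fold. DESeq2 1.42.0, other scalings, other limits and leaving out each library were alternatives.

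Promoters were taken from RefSeq (GRCm38.p6) for protein-coding genes, those of chromosome 18 not being used here for promoters alone, and matched 83.5% of higher, 83.3% of lower and 82.0% of all measured genes. Protein sequences were not used here, so lysine shares were computed from coding sequences of the GENCODE annotation. Replicate numbers do not pair the samples. The p-values behind the calls measure the spread between these libraries, which may be technical.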

Additional observations from a re-analysis of the deposited data

How the results depend on the processing

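Of the 40 genes named for wide gaps or high levels, 37 remained set apart with TMM or median of ratios scaling (Igfbp5, Mdm2 and Rpsa did not) and 36 on the FPKM values (Rap1b did not either). Without Lysfree 1, 39 remained (Otog did not), a count nearly fixed in advance. Leaving out a Lysfree library cannot undo the separation and removes a gene only through the limit on mean level. Leaving out 1 library at a time gave 2062 to 2499 higher and 1022 to 1201 lower genes set apart, with the highest counts of both without Lysfree 1, and 1089 to 1218 higher and 1762 to 1854 lower edgeR calls. Limiting the means of the other groups to a difference of 25% left 1342 higher and 652 lower genes, and asking for at least 2-fold left 326 and 275. The edgeR calls, 1241 higher and 1868 lower, became 602 and 1086 with at least 10 counts in every library, 4846 and 4479 with no fold threshold, and 1062 and 1841 with DESeq2. With the replicate number as a block the calls were 1074 and 1768; correlations of same-numbered deviations ran from -0.167 to 0.190, so the numbers pair nothing. Without Lysfree 1 the difference in median third-position G or C share, lower minus higher genes, went from 10.4 to 6.61 percentage points, that of median length from -1136 to -553 bases and that of lysine codon share from -0.36 to -0.19 percentage points; the cause was not tested. Counts per gene list stayed within 1.5 times of the reported value in 279 cases and did not in 21. Log2 differences of the named genes moved by less than 1 SD between replicates in 529 cases and by more in 16. No log2 difference of a named gene changed sign, but the larger side changed for 3 lists, from 13 higher and 8 lower lysine-modifying enzymes to 11 and 15 and from 8 and 5 autophagy genes to 5 and 6 with both TMM and the median of ratios, and from 10 and 5 translation factors to 6 and 7 with the median of ratios. The median log2 difference over all measured genes went from 0.025 to -0.043 with TMM, -0.054 with the median of ratios and -0.083 on the FPKM values. Differences at 1 to 2 CPM rest on few counts and are the least precise.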

Other observations

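A run of 4 neighbouring genes on chromosome 10, noticed after their values were seen, was expressed at a high level in all 9 libraries and was set apart in Lysfree in both directions. From 117688875 to 117846035 on mm10 it holds Mdm2, Slc35e3, Nup107 and Rap1b, all on the minus strand. Slc35e3, a member of a solute carrier family, held 1247 to 1299 CPM in Undifferentiated, 912 to 920 CPM in Differentiated and 1741, 1334 and 1361 CPM in Lysfree. Nup107, a nuclear pore protein, held 1616 to 2024 CPM with lysine and 1225, 1294 and 1273 CPM in Lysfree, 1.43-fold lower, and it stayed lower under TMM, median of ratios and FPKM scaling. Rap1b, a small GTPase, held 1232 to 1548 CPM with lysine and 2151, 1689 and 1639 CPM in Lysfree. The higher side of the run was narrow, with gaps of 1.03 for Slc35e3 and 1.06 for Mdm2 and Rap1b. Slc35e3 and Mdm2 were not set apart with TMM, the median of ratios or FPKM values, and Rap1b not with FPKM values. Without Lysfree 1 the log2 difference went from 0.34 to 0.19 for Rap1b and from 0.27 to 0.18 for Mdm2.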
